A study of Sus scrofa with 2 samples.

Results

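Pig skin fibroblasts rich in NT5E, SPON1 and CPZ were the largest fibroblast group in both libraries, with 607 of 913 fibroblasts in the fresh library (66.5%, exact 95% binomial interval 63.3 to 69.5%) and 756 of 1342 in the cryopreserved library (56.3%, 53.6 to 59.0%). Together they were 1363 of 2255 fibroblasts and of 6998 filtered skin cells. A cell was kept when it had at most 4500 genes, at most 30000 unique molecular identifiers (UMIs, tags that count each captured transcript once) and at most 10% of its UMIs on the 13 mitochondrial protein genes. It was taken as a fibroblast when COL1A1, COL1A2 and COL3A1, the chains of type I and type III collagen, took at least 2% of its UMIs and the basal keratin KRT5 took less than 0.3%. A fibroblast was a member when NT5E, SPON1 and CPZ summed to at least 3 UMIs and to more than the sum of MYOC, FGF10 and TMEFF2 and more than CTHRC1. The same genes split the other fibroblasts, by the mirrored rule, into a MYOC group (184 fresh and 336 cryopreserved cells), a CTHRC1 group (8 and 20 cells) and remaining cells that met no rule (114 and 230 cells).

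The samples were full skin from the back of healthy male farm pigs, with the fat under the skin removed, dissociated enzymatically into single cells. The fresh library came from untreated cells and the cryopreserved library from cells frozen in 90% FBS + 10% DMSO and thawed. The study describes FACS against dead cells and doublets before library preparation, and magnetic sorting as an alternative against dead cells. About 8000 cells entered each library. The sources do not say whether both came from the same animal, and a freezing step is part of the extraction text of both, although the title and the treatment label of one call it fresh. With 1 library per condition, and with members chosen by measured genes, no difference below was tested, and every interval covers counting error only.

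Dermal fibroblasts build and remodel the collagen, elastic fibres and proteoglycans of the skin, and differ with depth and with their nearness to epidermis, hair follicles and vessels. NT5E (CD73) is a surface enzyme that makes adenosine from AMP and is widely used to mark mesenchymal cells. SPON1 (F-spondin) is a secreted matrix protein with thrombospondin repeats, and CPZ is a secreted carboxypeptidase with a frizzled-like domain that can bind WNT proteins. COL6A1 encodes a chain of the beaded microfibrils of type VI collagen.

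The genes of the rule describe how the members were chosen. The sum of NT5E, SPON1 and CPZ ran from 3 to 107 UMIs in fresh members (median 16) and from 3 to 103 in cryopreserved members (median 14). CPZ gave most of it, 70.8% of these UMIs in fresh and 78.6% in cryopreserved members. CPZ was detected in 90.6% and 94.0% of members, SPON1 in 66.7% and 59.1%, and NT5E in 58.3% and 53.0%. All 3 genes were found together in 38.2% of fresh and 33.6% of cryopreserved members. Members on the threshold, with a sum of 3, were 33 fresh and 44 cryopreserved cells, with collagen at 4.29% and 5.35% of UMIs in the median. Just outside it, with a sum of 2, were 35 and 59 cells with 4.09% and 5.68%. WIF1, described below, was at 45.8 UMIs per 1000000 inside and 20.5 outside among fresh cells, and at 51.6 and 32.2 among cryopreserved cells. F13A1 was higher outside, at 220.4 inside and 311 outside among fresh cells and 152 and 219 among cryopreserved cells. IL6 was at 57.2 inside and 20.5 outside among fresh cells and at 43.4 and 149.6 among cryopreserved cells.

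**Figure D1:**
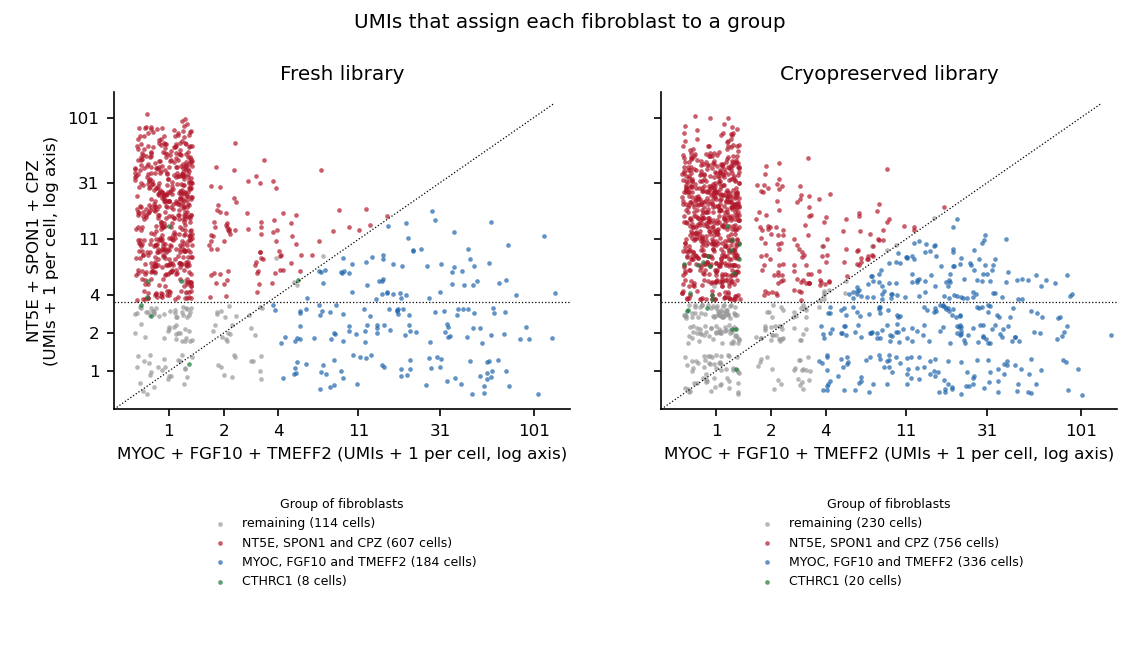
UMIs per cell of MYOC, FGF10 and TMEFF2 summed (x axis) and of NT5E, SPON1 and CPZ summed (y axis), both plus 1 on log axes with a small random shift, for the 913 fresh (left) and 1342 cryopreserved (right) fibroblasts. Red points are members, blue the MYOC group, green the CTHRC1 group and grey the remaining cells, and dotted lines mark 3 UMIs and equal sums. Most members lie at 0 on the x axis, 85.7% of fresh and 82.1% of cryopreserved members.

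MYOC, FGF10 and TMEFF2 had no UMI at all in 85.7% of fresh and 82.1% of cryopreserved members. CTHRC1, a secreted protein linked to collagen deposition, was less separated, with no UMI in 54.0% and 52.2% of members. In T-like cells NT5E had 0 UMIs in either library, SPON1 stood at 5.27 and 2.51 UMIs per 1000000 and CPZ at 3.16 and 2.51. The median depths of T-like cells were 6666 and 5067 UMIs per cell, against 15453 and 11507.5 in members. Other cell types carried little of the rule genes. SPON1 was highest among them in keratinocyte-like cells at 36.6 and 24.2 UMIs per 1000000. NT5E was highest among them in macrophage-like cells, at 23.2 and 29.4, and CPZ did not pass 5.41 in any of the 5 named types. COL6A1, given as a marker of the group, did not set it apart from other fibroblasts. It was detected in 100% of members and in 99.3% of fresh and 99.8% of cryopreserved other fibroblasts, at 5791 and 6416 CPM (UMIs summed over the cells of a group, per 1000000 after scaling with TMM factors) in members and 4189 and 4688 CPM in the others (log2 ratios 0.47 and 0.45).

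All 10 genes of a fibroblast list passed the minimum. The receptor PDGFRA was at 493 and 386 CPM in members and at 649 and 595 CPM in other fibroblasts, and was detected in 85.3% and 78.6% of members. The surface glycoprotein THY1 was at 298 and 370 CPM in members and 177 and 241 CPM in others. Markers of other cell types were scarce. The keratinocyte list summed to 52.2 and 55.2 UMIs per 1000000 in members against 27223 and 24905 in keratinocyte-like cells, and the endothelial list to 90.3 and 58.8 against 2932 and 3084, most of it PECAM1. The mural list stood at 99.2 and 134 against 7812 and 7039, led by CSPG4, with DES at 0 in both libraries. The mural-like cells were not pure, since they also held 11129 and 14485 UMIs per 1000000 of the keratinocyte list. Of these UMIs, 63.6% and 37.8% lay in 5 cells. The macrophage and dendritic list stood at 905 and 943 against 23836 and 31001. Of its 8674 fresh and 8576 cryopreserved UMIs in members, 8594 and 8398 were CD74, while MARCO was at 0 in both libraries and CD163 at 0 in the fresh library. The T and NK cell list stood at 1.46 and 9.45 UMIs per 1000000 against 2357 and 3559 in T-like cells, mostly CCL5, with CD3D and CD3E at 0 in members of both libraries. The erythrocyte list was at 105 and 120, all from HBB, and at 74.6 and 96.5 in other fibroblasts. Lists for mast cells, Schwann cells and melanocytes, and adipocytes each stayed under 10 UMIs per 1000000 in members. Only 1 fresh and 2 cryopreserved members carried more than 1% of their UMIs on markers of another lineage.

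The median depth of members was 15453 UMIs and 3646 genes per cell in the fresh library and 11507.5 UMIs and 3090 genes in the cryopreserved library, against 12366 and 9812 UMIs in the other fibroblasts. The CTHRC1 group had 11068.5 and 13133 UMIs, the latter above the members, and the remaining fibroblasts were the shallowest, at 8373.5 and 6508 UMIs. Type I and type III collagen took 11.2% of a fresh member's UMIs in the median and 14.8% of a cryopreserved member's. The MYOC group had 4.54% and 4.75%, the remaining cells 4.01% and 4.73%, and the CTHRC1 group 6.01% and 13.6%. Mitochondrial genes took 2.94% and 2.73% of members' UMIs, against 1.49% and 1.28% in the MYOC group, 3.61% and 2.67% in the remaining cells and 5.23% and 1.74% in the CTHRC1 group. No barcode was a member in both libraries, and 6 barcodes occurred in both.

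The shares of 66.5% and 56.3% came from 1 library each, and a difference between the conditions could not be tested. After each cell was thinned to 5000 UMIs and shallower cells were left out, members were 472 of 856 fresh fibroblasts (55.1%, 51.7 to 58.5%) and 592 of 1189 cryopreserved fibroblasts (49.8%, 46.9 to 52.7%). The part of depth in these shares was not tested. Without the maxima on genes and UMIs the shares were 70.6% and 57.2%. Of all filtered cells, members were 21.9% (20.3 to 23.5%) in the fresh and 17.9% (16.8 to 19.1%) in the cryopreserved library.

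To see what the members shared beyond the rule, UMIs were summed over members and over the other fibroblasts of each library. Of 8189 genes with at least 100 UMIs over all fibroblasts in each library, 297 (3.63%) were at least 2-fold higher in members in both libraries and 227 (2.77%) at least 2-fold lower, on the log2(CPM + 1) scale. These counts depend on the scaling: with total UMIs in place of TMM factors they were 188 and 349, and with DESeq2 size factors 239 and 266. The comparison uses the same cells as the rule, so it describes the group and tests nothing. The shares of 3.63% and 2.77% are the background for the counts of every gene list compared with other fibroblasts below. The MYOC group held 70.7% of the UMIs of the other fibroblasts when fresh and 65.5% when cryopreserved. Against the MYOC group alone, 440 of 7877 genes (5.59%) were 2-fold higher and 336 (4.27%) lower. Against the remaining cells alone, 135 of 7489 (1.8%) were higher and 36 (0.481%) lower.

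**Figure D2:**
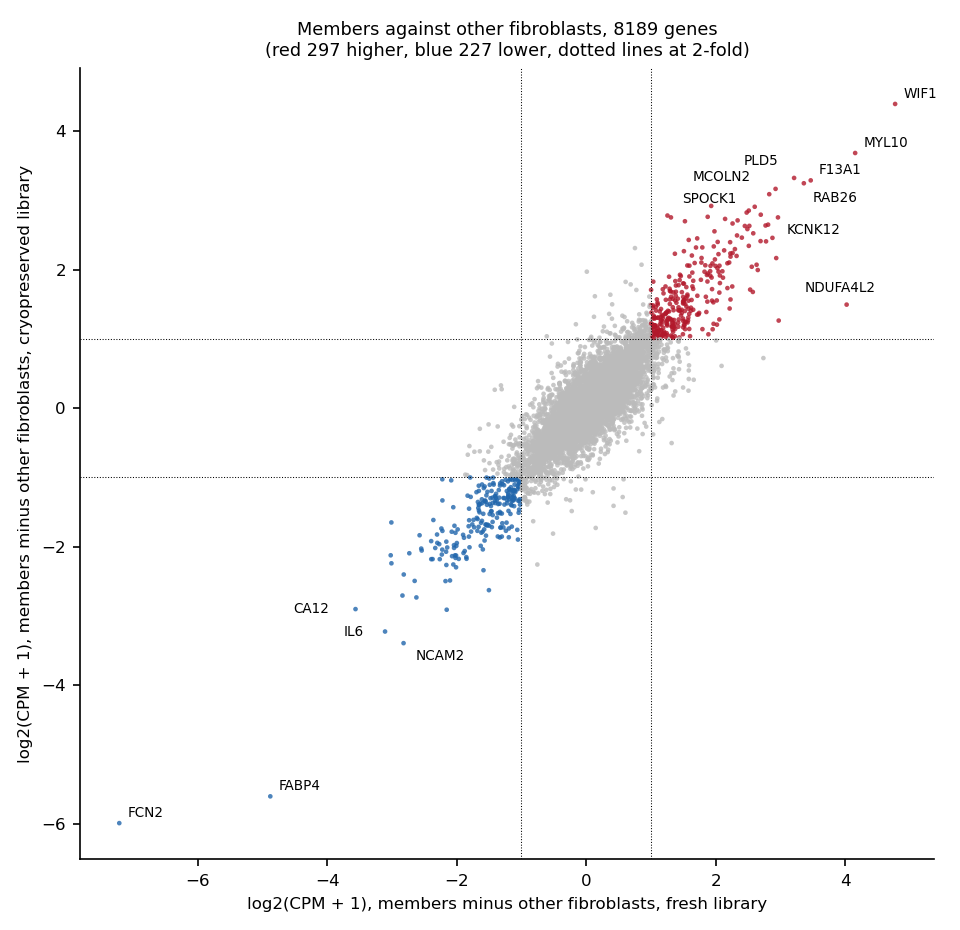
Difference in log2(CPM + 1) between members and other fibroblasts in the fresh (x axis) and the cryopreserved library (y axis) for 8189 genes, each point a gene, with dotted lines at 2-fold. Red points are the 297 genes higher and blue points the 227 lower in both libraries. WIF1 lies farthest up, at 4.77 and 4.39, and FCN2 farthest down, at -7.21 and -5.99.

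WIF1, a secreted inhibitor that binds WNT proteins, led the genes higher in members (ENSSSCG00000030998, Sscrofa11.1 chr5:29450442-29543913). It had 158 CPM in fresh and 148 CPM in cryopreserved members, and 4.81 and 6.11 CPM in the other fibroblasts. The difference rested on a minority of cells, since WIF1 was detected in 23.9% of fresh and 22.4% of cryopreserved members (3.27% and 3.41% of other fibroblasts) and in 0 T-like cells. At least 5 WIF1 UMIs were found in 61 fresh and 67 cryopreserved members, and in 0 and 3 other fibroblasts.

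F13A1, the A subunit of coagulation factor XIII, a cross-linking enzyme, was at 416 and 360 CPM in members and at 36.6 and 36.0 CPM in other fibroblasts (log2 ratios 3.47 and 3.29). It was nearly absent from the MYOC group (3.15 and 0.84 CPM) and intermediate in the remaining cells (118 and 105 CPM). F13A1 was detected in 52.6% and 44.8% of members. Macrophage-like cells also carried it, at 1477 UMIs per 1000000 in the fresh library and in 86.5% of cells. The macrophage and dendritic list stood at 905 and 943 UMIs per 1000000 in members, nearly all CD74, and at 1052 and 1217 in other fibroblasts. Its part in the F13A1 value was not tested.

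KCNK12, a background potassium channel subunit, was at 109 and 120 CPM in members and 13.1 and 16.9 CPM in others, and was detected in 52.2% and 50.4% of members. The small CTHRC1 group had more of it, at 153.5 and 137.5 CPM from 17 and 38 UMIs. SLC8A3, a sodium-calcium exchanger, was at 82.9 and 57.9 CPM against 10.97 and 8.38 CPM. MCOLN2, a channel of endosomes and lysosomes, was at 20.8 and 18.9 CPM against 1.87 and 1.22 CPM. The secretory RAB GTPase RAB26 was at 47.8 and 56.6 CPM against 3.74 and 5.07 CPM, and PLD5, of the phospholipase D family, at 50.4 and 40.5 CPM against 4.55 and 3.14 CPM. All 5 genes were higher in members of both libraries, by log2 ratios from 2.65 to 3.36.

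The rest of the 15 leading genes were MYL10, SPOCK1, NDUFA4L2, ZDHHC2, PAPPA, CAP2, PGA5 and ENSSSCG00000045657. MYL10, a myosin light chain gene, had 263 and 247 UMIs in members, and 3 and 9 in other fibroblasts (log2 ratio in the fresh library 4.15, counting interval of the count ratio 3.71 to 7.56). SPOCK1, a testican proteoglycan, was at 59.3 and 67.0 CPM in members and 7.49 and 6.99 CPM in others. The CTHRC1 group had 18.1 and 61.5 CPM of SPOCK1, from 2 and 17 UMIs, and mural-like cells had 47.0 and 41.8 UMIs per 1000000. NDUFA4L2, a nuclear gene known to respond to hypoxia, had 129 UMIs in fresh members and 0 in the other fresh fibroblasts. Against a floor of 3 UMIs over the group it was 19.0-fold higher, and the counting interval of the log2 count ratio began at 3.93. In the cryopreserved library NDUFA4L2 was at 18.6 CPM in members and 5.94 CPM in others (log2 ratio 1.49). In the others 1 cell held 61.8% of the 34 UMIs, and without the top cell of each group the ratio was 2.20. NDUFA4L2 was detected in 8.90% of the fresh members and 6.22% of those cryopreserved. With cells thinned to 5000 UMIs, its mean ratio over the libraries was 0.93 in place of 2.76, under 2-fold.

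At the other end, FCN2, a ficolin that starts the lectin pathway of complement, had 3 UMIs in fresh and 11 UMIs in cryopreserved members, against 748 and 878 UMIs in other fibroblasts. FABP4, a fatty acid carrier of adipocytes and capillary endothelium, was at 2.96 and 4.02 CPM in members and at 115.5 and 243 CPM in others. CA12, a carbonic anhydrase, was at 1.30 and 2.60 CPM against 26.2 and 25.9 CPM. IL6, an inflammatory cytokine, was at 87.5 and 80.4 CPM in members and 762 and 760.3 CPM in others, with at least 5 UMIs in 27 and 21 members and in 67 and 130 other fibroblasts. These genes were concentrated in the MYOC group, where FCN2 stood at 287 and 234 CPM and IL6 at 1071 and 1133 CPM. The remaining cells had FCN2 at 18.3 and 24.9 CPM and IL6 at 121 and 169 CPM. The other genes of the 15 lowest were NCAM2, KCNK13, C4A, LRP1B, TMEM100, ADAM7, DYNC1I1, SOX5, DTX1, APOA1 and ENSSSCG00000032591, with log2 ratios between -3.39 and -1.65.

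Collagen I, collagen III and SPARC were the most abundant named transcripts of the members by UMIs. The collagens entered the rule for fibroblasts, so their level within fibroblasts is partly set by it. COL1A1 was at 76608 and 98213 CPM in members and 21578 and 25073 CPM in others (log2 ratios 1.83 and 1.97). COL1A2 was higher by 1.92 and 1.91, and COL3A1 by 1.29 and 1.29. SPARC, a collagen-binding matricellular protein that the rule did not use, was at 14683 and 17395 CPM against 4971 and 5670 CPM. The CTHRC1 group, of 8 and 20 cells, lay between, with SPARC at 8463 and 12791 CPM. Its COL1A1 was at 26436 and 65230 CPM, COL1A2 at 18154 and 46722 CPM and COL3A1 at 14839 and 33938 CPM. The other 4 fibrillar collagens of the list did not reach 2-fold in both libraries. COL11A1 did so in the cryopreserved library only, at 24.1 CPM against 5.41 CPM, with 9.70 and 9.63 CPM in the fresh library. COL5A1 and COL5A2, which join type I fibrils, had smaller differences, with COL5A2 at 1565 and 1639 CPM against 921 CPM in the fresh and 980.0 CPM in the cryopreserved others.

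Members also differed from other fibroblasts in further collagen types. Among collagens that bind to fibrils or belong to minor types, COL12A1 (1317 and 1169 CPM against 450 and 422), COL14A1 (1089 and 1151 against 459 and 441) and COL26A1 (73.8 and 49.7 against 14.98 and 9.78) were 2-fold higher in members. COL15A1 and COL18A1, which lie at basement membranes, were 2-fold lower, COL15A1 at 117 and 102 CPM against 323 and 339. In the basement membrane list of 11 genes compared, COL4A1, COL4A2 and the laminin chain LAMB1 were lower and the laminin chain LAMC3 was higher. COL4A1 was at 266.5 and 267 CPM in members and 1046 and 1210 CPM in all other fibroblasts, and in the fresh library it stood at 1315.5 CPM in the MYOC group. LAMC3 was at 94.6 and 64.2 CPM against 15.3 and 14.9 CPM. None of the 5 type VI collagen genes reached 2-fold.

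**Figure D3:**
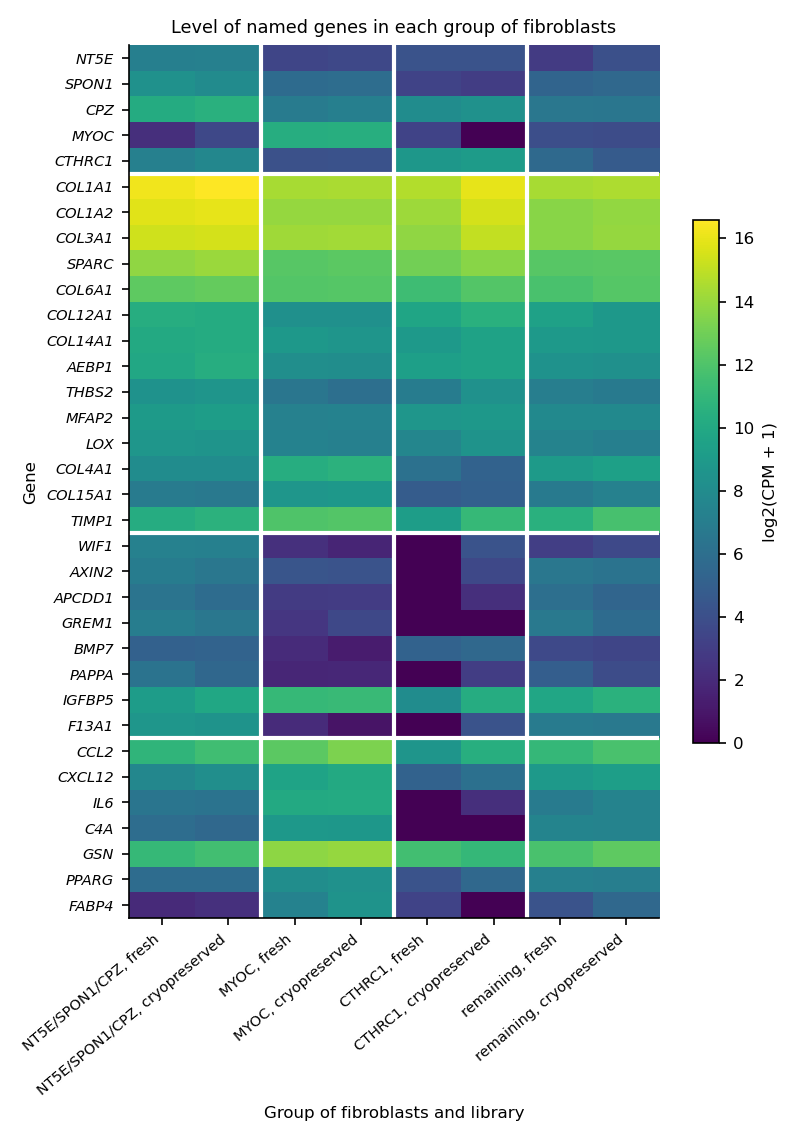
Level of 34 genes (rows) as log2(CPM + 1) in the 4 groups of fibroblasts and the 2 libraries (columns), with brighter colour for a higher level. Within a row, the 2 libraries of the members are close to each other, while the MYOC group is darker in COL1A1, COL1A2, COL3A1 and WIF1 and brighter in COL4A1, IL6, GSN and FABP4. The CTHRC1 columns rest on 8 and 20 cells.

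Other matrix genes divided along similar lines. In the elastic fibre list, 5 of 20 genes were 2-fold higher in members (ELN, FBN2, MFAP2, MFAP4 and LOX) and 3 lower (EFEMP1, LTBP4 and EMILIN2). MFAP2, a microfibril protein, was at 522 and 610 CPM against 184 and 200 CPM, and LOX, which cross-links collagen and elastin, at 412.5 and 385 CPM against 166 and 158. EFEMP1 (fibulin-3) was at 224 and 233 CPM in members and at 691 and 737 CPM in others. OMD and KERA were the 2 higher genes among 10 small leucine-rich proteoglycans, and DCN was at 6775 and 7252 CPM against 4065 and 3889 CPM, short of 2-fold. Among 10 thrombospondin and spondin relatives, THBS2 (356 and 409 CPM against 103 and 94.5), RSPO1 and CCN4 were higher and CCN3 was lower. CPZ's relatives AEBP1 and CPXM2 were higher, with AEBP1 at 984 and 1314 CPM against 325 and 315. Both are members of the carboxypeptidase family that lack the active-site residues.

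Of 15 proteases and inhibitors compared, MMP27 was higher, ADAMTS3, ADAMTS4, ADAMTS5 and TIMP1 were lower, and 10 did not reach 2-fold. ADAMTS4, an aggrecan- and versican-cleaving protease, was at 366 and 304 CPM in members and 1325 and 1355 CPM in others. TIMP1, a metalloproteinase inhibitor, was at 1245 and 1639 CPM against 3245 and 4124 CPM. MMP2, the gelatinase of most fibroblasts, was at 1305 and 1518 CPM in members and 1103 and 1262 CPM in others.

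WNT signalling runs through frizzled and LRP receptors to beta-catenin and the TCF/LEF factors, and secreted inhibitors such as WIF1 and the DKK proteins act on its ligands and receptors. Of 22 WNT pathway genes compared, 7 were 2-fold higher in members (WIF1, WNT5B, WNT16, DKK3, APCDD1, NKD1 and AXIN2), and 1, DKK2, was lower. Among the ligands, WNT5B was at 73.9 and 60.3 CPM against 24.1 and 21.7, and WNT16 at 27.5 and 20.1 CPM against 5.62 and 4.37. AXIN2, NKD1 and APCDD1 are feedback inhibitors that beta-catenin signalling is known to induce. AXIN2 was at 126 and 94.1 CPM in members and 41.5 and 37.4 CPM in others, APCDD1 at 80.6 and 57.5 against 23.8 and 18.0, and NKD1 at 46.0 and 33.2 against 15.5 and 6.11. All 3 were low in the MYOC group (AXIN2 at 19.7 and 17.7 CPM, APCDD1 at 6.31 and 6.74 CPM and NKD1 at 4.73 and 1.97 CPM). In the remaining cells AXIN2 was at 96.2 and 78.3 CPM, APCDD1 at 66.9 and 41.3 CPM and NKD1 at 42.1 and 14.3 CPM, the last well under the members in the cryopreserved library. Members whose rule sum CPZ led (71.7% of fresh and 78.3% of cryopreserved members) had less AXIN2, APCDD1 and NKD1 than SPON1-led members. CPZ-led members had AXIN2 at 77.1 and 59.9 UMIs per 1000000, scaled by total UMIs. Their APCDD1 was at 41.3 and 32.4, and their NKD1 at 26.7 and 22.0. Only NKD1 in the cryopreserved library was above its CPM in the remaining cells, although the scales differ. On the total-UMI scale, fresh remaining cells had APCDD1 at 74.6. The list's median log2 ratio was 0.07 and 0.37, against 0.07 and 0.05 over all genes compared.

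The 250 bases before the RefSeq start of WIF1, which had the largest ratio, and of AXIN2 and NKD1 are shown. AXIN2 and NKD1 were the 2 of the 7 higher WNT genes whose windows held the letters marked below. The windows were read from Sscrofa11.1 on the strand of the gene, at chr5:29543914-29544163 (minus), chr12:12343208-12343457 (minus) and chr6:34319585-34319834 (minus). Capitals mark CTTTGA, the core letters of a TCF/LEF motif, searched on both strands.

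WIF1: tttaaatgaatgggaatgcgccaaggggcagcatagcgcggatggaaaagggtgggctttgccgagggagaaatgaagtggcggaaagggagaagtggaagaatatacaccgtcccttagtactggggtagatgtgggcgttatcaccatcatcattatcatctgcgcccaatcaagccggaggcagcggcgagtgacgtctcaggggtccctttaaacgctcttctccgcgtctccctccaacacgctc
AXIN2: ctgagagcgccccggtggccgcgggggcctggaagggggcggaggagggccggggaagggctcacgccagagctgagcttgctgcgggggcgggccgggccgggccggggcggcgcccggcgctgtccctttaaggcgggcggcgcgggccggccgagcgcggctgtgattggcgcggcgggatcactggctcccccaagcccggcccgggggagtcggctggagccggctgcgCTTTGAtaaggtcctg
NKD1: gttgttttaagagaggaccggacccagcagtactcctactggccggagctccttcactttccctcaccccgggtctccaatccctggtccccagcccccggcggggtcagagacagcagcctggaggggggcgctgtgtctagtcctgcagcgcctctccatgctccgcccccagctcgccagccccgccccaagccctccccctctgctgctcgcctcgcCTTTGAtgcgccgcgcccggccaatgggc

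The letters stood at -16 to -11 from the start of AXIN2 and at -29 to -24 from that of NKD1. The windows of the other 5 genes (WIF1, WNT5B, WNT16, DKK3 and APCDD1) held no match. Among 19544 pig promoters of the same length, 10.7% held the letters, so a match in 2 of 7 windows describes these sequences and shows no binding.

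Genes that papillary dermal fibroblasts are known for overlapped this list, with WIF1, APCDD1, AXIN2 and RSPO1 higher and COL18A1 lower among 11 compared. Of 6 reticular dermis genes, ELN was higher and the adipogenic genes FABP4 and PPARG were lower. PI16, a marker of adventitial fibroblasts, was at 604.5 and 810.5 CPM in members against 334 and 192 CPM, 2-fold in the cryopreserved library only. In the adventitial list of 14, GSN (gelsolin, an actin-severing protein) was lower, at 2197 and 3022 CPM against 10601 and 11783 CPM, and 0 genes were higher. Of 9 genes of the follicle papilla and sheath, CRABP1, a retinoic acid carrier, was higher, at 404 and 466 CPM against 156 and 98.5 CPM, and DKK2 was lower, and the median log2 ratio of this list was -0.13 and 0.02. OSR1, OSR2 and HOXC8 were the 3 higher among 24 transcription factors of position and fibroblast identity, with OSR2 at 208 and 195 CPM against 75.4 and 72.7. Over all genes compared, 3.63% were higher and 2.77% lower.

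In the BMP and TGF-beta list of 28, BMP7, INHBA and GREM1 were higher and GDF10 was lower, beside 3.63% higher and 2.77% lower over all genes compared. GREM1, a secreted BMP antagonist, was at 132 and 95.6 CPM in members, 33.7 and 25.1 CPM in others and 5.13 CPM in the fresh MYOC group. BMP7, a ligand, was at 34.9 and 38.3 CPM against 6.69 and 6.46. In the IGF system, PAPPA, a protease that frees IGF from its binding proteins, was higher (77.0 and 45.4 CPM against 10.4 and 6.46), while IGF1, IGFBP5 and IGFBP7 were lower. IGFBP5 was at 570 and 947 CPM against 1803 and 2059, and IGFBP7 at 606 and 590 CPM against 1652 and 1722. Among further growth factor genes, VEGFD was higher, at 36.5 and 40.5 CPM against 8.02 and 12.05, as was GAS6, at 71.2 and 85.6 CPM against 25.7 and 31.6, and NTF3 was lower. The axon guidance list of 21 had SEMA3B, SLIT3 and ROBO2 higher and NRP2 and EPHA3 lower, with SEMA3B at 75.8 and 121 CPM against 18.4 and 19.7. Among 11 genes of hyaluronan and proteoglycans, GPC1 was higher and the glypicans GPC3 and GPC6 were lower.

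Cytokines and lipid genes were the lists with most genes lower. Of 11 chemokines and cytokines compared, CCL2, CXCL2, CXCL12, CXCL14, LIF and IL6 were 2-fold lower and CXCL8 was higher. CXCL2, a neutrophil attractant, was at 807 and 1390 CPM in members and 4067 and 5637 CPM in others. CXCL12, which holds leukocytes and stem cells near stroma, was at 204 and 287 CPM against 685 and 879. CCL2, which attracts monocytes, was at 1838 and 2940 CPM against 4287 and 7616, and remained one of the abundant transcripts of members. The list's median log2 ratio was -1.22 and -1.37. CCL19, a ligand of CCR7, was at 232 and 161 CPM in members and 230 and 242 CPM in others, and was higher in the remaining cells (506 and 449 CPM) than in the MYOC group (121 and 151 CPM).

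Of 16 genes of lipid handling, LPL, FABP4, PPARG, PLIN2, PTGS2, CYP1B1 and CEBPD were lower and FABP5 was higher. PPARG, the master regulator of fat cell formation, was at 56.1 and 57.2 CPM in members, 232 and 253 CPM in others, and 277.5 CPM in the fresh MYOC group. FABP5, an epidermal-type fatty acid carrier, was at 100.2 and 142 CPM against 39.9 and 67.9. In the complement list of 9, C4A and CFB were lower and C1QTNF1 and C4BPA higher. C4BPA, a soluble complement inhibitor, was at 35.02 and 42.3 CPM against 8.02 and 9.43. In the adenosine list that includes partners of NT5E, 0 of 8 genes were higher and ADORA2B, an adenosine receptor, was lower, at 5.44 and 7.40 CPM against 32.4 and 37.0. TPM1 was the 1 lower gene among 8 of the contractile list, and 0 were higher. The lists of immediate early genes (16 compared) and heat shock genes (12) had 0 genes past 2-fold in either direction. Over all genes compared 3.63% were higher and 2.77% lower, so a count of 0 in lists of this size says little about these genes. Of the tendon and fascia list (6 compared) only GDF10 passed, being lower. The nerve-associated, cold response and dividing cell lists each had 1 gene compared, with 0 past 2-fold.

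**Figure D4:**
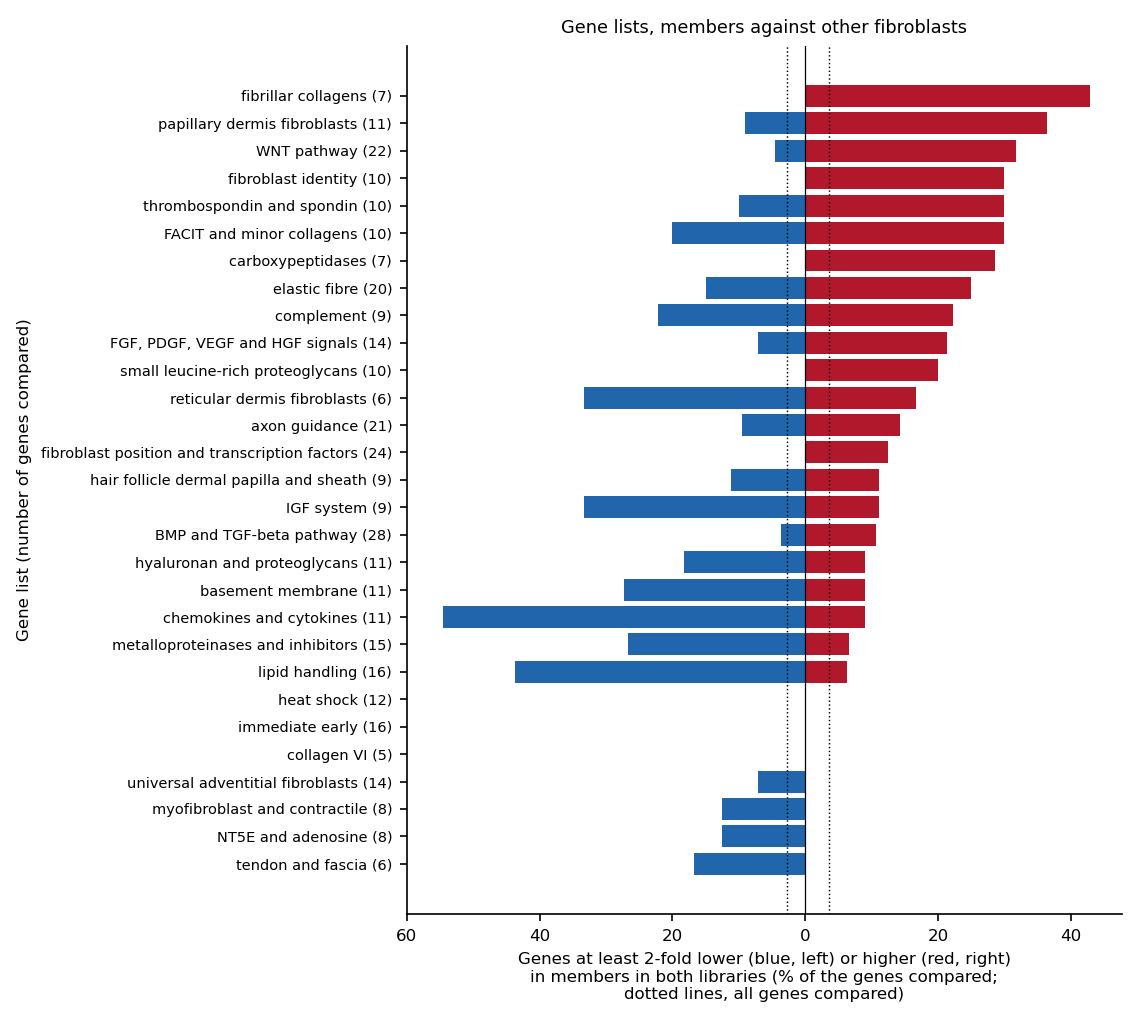
Percent of the genes compared in each list that were at least 2-fold higher (red, right) or lower (blue, left) in members than in other fibroblasts in both libraries, for lists with at least 5 genes compared. Dotted lines mark 3.63% higher and 2.77% lower over all 8189 genes. Papillary dermis genes (4 of 11) reach far right, and the fibrillar collagen bar (3 of 7) holds only the 3 chains that the fibroblast rule used. Chemokines and cytokines (6 of 11) reach farthest left.

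The members were also near each other in genes the rule did not use. Among the 30 nearest fibroblasts of a member by principal components, taken without the rule genes and the 3 collagens, 87.5% were members among fresh cells and 82.3% among cryopreserved cells, while members were 66.4% and 56.3% of all fibroblasts. Cells of the MYOC group had only 26% and 15.7% members among their neighbours. Cells of the CTHRC1 group lay mostly among members (82.1% and 81.5%). The remaining cells had 69% and 49.9%.

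The spread among members was taken as the variance over the mean, which favours abundant genes. With each member thinned to 5000 UMIs (593 fresh and 707 cryopreserved cells), the variance over the mean was highest for COL1A2 and COL1A1 among 7239 genes, at 142 and 134 in the fresh library and 96.1 and 139 in the cryopreserved library, against medians of 1.21 and 1.17. Both chains entered the fibroblast rule. From the 10th to the 90th percentile of fresh members, collagen took from 3.94% to 28.2% of UMIs. MGP, a matrix inhibitor of calcification, CXCL2, S100A4, GSN and CCL2 followed, along with the immediate early gene FOS and the heat shock gene HSP70.2, whose UMIs may be shared with near-identical copies. COCH also ranked in the first 4 genes in both libraries, where 4 fresh and 4 cryopreserved members held 520 of its 527 and 249 of its 255 UMIs.

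The gene that led the rule sum divided the members. CPZ led in 435 fresh and 592 cryopreserved members, SPON1 in 147 and 132, and NT5E in 6 and 5, and the others were tied. Members led by SPON1 had fewer UMIs than those led by CPZ (medians 12145 against 17128 in the fresh library and 8939 against 12180.5 in the cryopreserved library) and less collagen (7.95% against 13.6%, and 9.07% against 17.5%). Summed over cells and scaled by total UMIs, 238 of 6912 genes (3.44%) were 2-fold higher in the SPON1-led cells in both libraries and 100 (1.45%) lower. These subsets were made from the rule genes, and the genes named for them were picked after their values were seen.

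LAMC3 was at 362 and 276 UMIs per 1000000 in SPON1-led cells and at 15.7 and 12.04 in CPZ-led cells. COL23A1, a transmembrane collagen, was at 300.3 and 81.1 against 12.6 and 1.85. PAPPA (209 and 122 against 32.4 and 24.3), DKK3 (205 and 181 against 27.4 and 44.2), APCDD1 (195 and 130 against 41.3 and 32.4) and AXIN2 (241 and 179 against 77.1 and 59.9) were higher in SPON1-led cells as well. F13A1 followed them, at 850.1 and 771 against 243 and 223. So did S100A4, a calcium-binding protein of motile cells, at 4757 and 4853 against 1007 and 1451. WIF1 was alike in the 2 subsets, at 158 and 148 in SPON1-led and 131 and 121 in CPZ-led cells.

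CPZ-led cells carried more of MGP (3892 and 5265 UMIs per 1000000 against 440 and 1061), the secreted WNT modulator SFRP4 (349 and 365 against 16.3 and 70.6), ANGPTL1 (207 and 242 against 24.2 and 34.9), BMP7 (38.5 and 38.0 against 3.94 and 4.87) and CYP7A1 (136 and 113 against 11.2 and 16.2). CTHRC1 was at 162 and 208 in CPZ-led and 7.31 and 9.73 in SPON1-led cells. COL6A1 was close in both, at 4836 and 5306 in CPZ-led and 6131 and 6082 in SPON1-led cells.

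One question of the study was whether freezing changes expression. Of 9126 genes with at least 100 UMIs over the members of both libraries, 53 (0.581%) were at least 2-fold higher and 32 (0.351%) at least 2-fold lower in cryopreserved members. NT5E, SPON1, CPZ, MYOC, FGF10, TMEFF2 and CTHRC1 were kept in this count, although they were left out of the comparison with other fibroblasts. The median absolute log2 ratio was 0.21 and the median ratio 0.03. NT5E was at 139 CPM in fresh and 145 CPM in cryopreserved members, SPON1 at 339 and 258 CPM, CPZ at 1159 and 1481 CPM, and WIF1 at 158 and 148 CPM. The rule kept the sum of MYOC, FGF10 and TMEFF2 below that of NT5E, SPON1 and CPZ. MYOC was at 3.67 and 11.2 CPM in members (31 and 86 UMIs, log2 ratio 1.38) and was 1 of the 53. TMEFF2 was at 13.7 and 28.0 CPM (log2 ratio 0.98) and FGF10 at 10.3 and 11.2 CPM. CTHRC1 was at 147 and 206 CPM.

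Some differences between the libraries occurred in all fibroblasts. ARPC1B, a subunit of the actin-nucleating ARP2/3 complex, was at 79.3 CPM in fresh and 240 CPM in cryopreserved members (log2 ratio 1.59, counting interval 1.47 to 1.73), and at 87.7 and 262.5 CPM in other fibroblasts. PRMT2, an arginine methyltransferase, was at 89.8 and 17.0 CPM in members and 74.4 and 12.4 CPM in others. ND3, a mitochondrial complex I gene, was at 1093 and 219 CPM in members, and its log2 ratio in other fibroblasts was -2.53. For these genes no single cell decided the value: without the member with most UMIs in each library, the log2 ratios were 1.59, -2.35 and -2.32.

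COL23A1 differed in the members and little in the other fibroblasts. It was at 75.2 CPM in fresh and 16.2 CPM in cryopreserved members, and at 10.4 and 9.43 CPM in others. At least 5 UMIs were found in 31 fresh and 9 cryopreserved members, and the difference without the top cell of each library was -2.05. It was detected in 8.73% and 6.08% of members. MMP3 (stromelysin-1) and the potassium channel KCNQ5 were higher in cryopreserved members, at 6.74 and 21.3 CPM and 8.52 and 28.5 CPM, while their log2 ratios in other fibroblasts were -0.23 and -0.04 (MMP3 with only 6 and 7 UMIs there).

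Several of the largest ratios came from few cells. ENSSSCG00000006286 had 22 UMIs in cryopreserved and 7 in fresh members once the top cell of each library was left out, a log2 ratio of 1.08 in place of 2.91. In other fibroblasts its log2 ratio was 3.51, from 1 fresh and 77 cryopreserved UMIs, and 1 cell held 45.5% of the 77. ASTN1 in members went from -1.36 to -0.42 without the top cells. RGS5, a pericyte gene, was at 2.37 and 14.9 CPM in fresh and cryopreserved members, detected in 2.31% and 3.17% of them, and the mural list as a whole was at 99.2 and 134 UMIs per 1000000. The part of mural RNA in the RGS5 value was not tested. KCNQ5, ADIRF and TNFRSF9 fell under 2-fold when cells were thinned to 5000 UMIs (0.49, 0.56 and -0.78). ADIRF, TNFRSF9 and KIAA0319 were each at or under 13.2 CPM in members of either library.

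**Figure D5:**
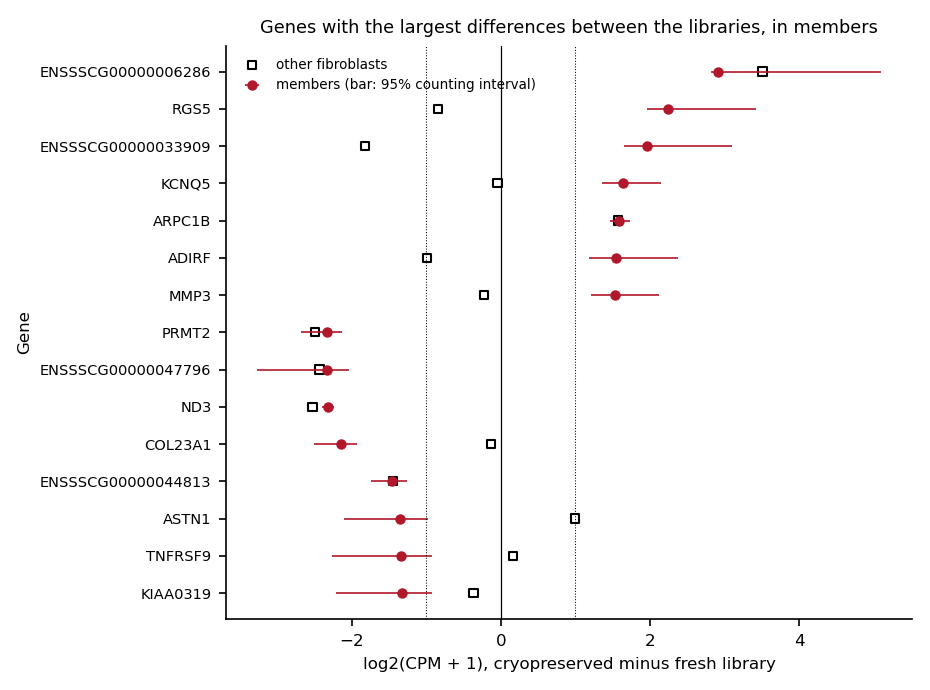
Difference in log2(CPM + 1) between the cryopreserved and the fresh library (x axis) for genes with the largest differences in members (rows), for members (red, with the 95% counting interval of the ratio of counts) and other fibroblasts (open squares). ARPC1B, PRMT2 and ND3 have squares near the red points, while COL23A1 and MMP3 have squares near 0.

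By list, the follicle papilla and sheath list had most genes past 2-fold between the libraries of the members, with COL11A1 higher and RSPO3 and ITGA8 lower of 10 compared, against 0.581% higher and 0.351% lower over all genes. Heat shock, WNT, complement and cytokine lists had 0. RBM3, an RNA-binding protein induced by cold, had a log2 ratio of 0.58, short of 2-fold. In the fibroblast list the median was 0.16, with COL1A1 at 0.36 and LUM at -0.31. Of 10 contractile genes ACTA2 and TAGLN, both also genes of mural cells, were higher in cryopreserved members, ACTA2 at 5.21 and 15.7 CPM and TAGLN at 16.6 and 38.1 CPM, and other fibroblasts had 5.35 and 18.9 CPM of ACTA2 and 16.3 and 34.4 CPM of TAGLN. The immediate early gene JUNB was at 7.69 and 17.1 CPM. COL11A1, a fibrillar collagen, was at 9.70 and 24.1 CPM in members and 9.63 and 5.41 CPM in others, and 10 cryopreserved members held 137 of its 186 UMIs. RSPO3, a WNT-enhancing ligand, was lower, at 26.6 and 12.5 CPM.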

How the data were processed

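Single-cell RNA-seq libraries of fresh and of cryopreserved pig skin cells, 1 each, were made with the 10x 3' V3 kit. Per the labels and methods, the authors aligned reads to Sscrofa11.1 with Cell Ranger 4.0.0 and deposited matrices of raw UMI counts per gene and cell (31908 features, of which 14407 had no symbol). Filtered cells held 32274985 UMIs (fresh) and 36687009 (cryopreserved). Members, gene lists and comparisons were chosen with earlier results of these data known.

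UMIs were summed per group and library, scaled with TMM factors (edgeR 4.0.16, R 4.3.3) and compared as log2(CPM + 1) for genes with at least 100 UMIs over all fibroblasts of each library or, between the libraries, over the members of both together. A gene was called at 2-fold. The 15 genes highest and 15 lowest in members over both libraries and the 8 each way between libraries were named. There was 1 library per condition, so no test was run, and 3' counts were not compared between genes by length. Intervals are exact and 95%. No doublet caller was run. The study describes sorting against doublets, and the maxima on genes and UMIs were applied. Alternatives covered thresholds, filters, scaling (DESeq2 1.42.0 among them) and thinning. Other cell types were named from markers. The comparison script was tested on simulated data. A gene of the growth factor list is not reported here, and the count of that list is left out.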

Additional observations from a re-analysis of the deposited data

Results flagged for a closer look

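For 5 of the named genes, members and other fibroblasts stood in opposite order in the libraries. The counting intervals of both ratios excluded 0 for 2 of them. ENSSSCG00000033909 had a log2 ratio of members over other fibroblasts of -1.28 among fresh and 2.503 among cryopreserved cells, and -0.85 and 1.90 without the top cell of each group. ADIRF had -0.92 and 1.61, and 0.26 and 1.49 without those cells, so its fresh direction rested on 1 cell that held 71.0% of the 31 UMIs of the other fibroblasts. The others were RGS5 (-0.72 and 2.36, and 0.31 and 2.12 without the top cells), KCNQ5 (-1.41 and 0.27) and KIAA0319 (0.21 and -0.75). Each condition had 1 library, and the differences were not tested.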

How the results depend on the processing

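No paired analysis was possible because fresh and cryopreserved cells had 1 library each, and members were compared with other fibroblasts within each library without a test, since the rule chose them by measured genes. The members' share of fibroblasts moved in 11 of 16 alternative values. In the fresh library it was 70.3% and 60.2% with a sum of at least 2 or 5 UMIs, 61.5% and 80.0% with collagen at 1% or 5%, 70.6% without the maxima and 55.1% thinned. In the cryopreserved library it was 60.7% and 49.6%, 52.3% and 71.2%, and 49.8% thinned. Genes higher in members (297) became 139 thinned, 188 with total UMIs, 153 with a minimum of 500 UMIs, 174 with CPM + 10, 139 with per-cell means, 807 at 1.5-fold and 135 against the remaining cells. Genes lower (227) became 136, 349, 118 and 143 in the first 4 of these, 286 with per-cell means (32.7% of calls higher, against 56.7%), 563 at 1.5-fold and 36 against the remaining cells. Genes higher in cryopreserved members (53) became 14 thinned, 191 with no minimum, 10 with 500 UMIs, 9 with CPM + 10 and 355 at 1.5-fold, and genes lower (32) became 19, 134, 7, 8 and 290. The cause was not tested. The 184 values of the 46 named genes under 4 alternatives (total UMIs, DESeq2 size factors, per-cell means and thinning) kept their sign. Thinning took NDUFA4L2, KCNQ5, ADIRF and TNFRSF9 under 2-fold. Total-UMI scaling shifted the median of all genes by -0.20 and -0.21 and changed the sign of 7 of 32 list medians. The comparison with the MYOC group alone (440 and 336 genes) and the ratios without the top cells were chosen after seeing the data.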
